A study of Mus musculus with 21 samples.

Results

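Cell division and replication genes were followed with whole-transcript arrays in male C57BL/6J mice, in the fat pad that lies along the epididymis. The set held 55 genes listed by symbol, among them CDK1 with its cyclins and mitotic kinases, the kinetochore, spindle and cytokinesis machinery, and genes that license and start DNA replication. Of these, 52 had a probe with a single gene symbol and were measured, out of 16248 genes tested. Ccnb1, Ncapg and Ccne2 had no such probe and were left out. Each of the 52 genes was read by 1 probe. The mice arrived aged 4 weeks, acclimated for 1 week and were kept on their diets for 12 weeks. Each of 7 groups is represented by 3 arrays, 21 in all. ND stands for a normal diet in which fat gave 10% of the energy. HFD stands for a high-fat diet in which fat gave 40%, and each of the 5 supplements was given on that diet. BC mice received Bacillus coagulans, a probiotic bacterium, at 0.3% by weight. SMG mice received steamed grain at 0.3%, L_FMG mice fermented mixed grain at 0.3% and H_FMG mice the same at 0.9%. RMG is a group code whose supplement and dose the labels leave undescribed. The labels state 10 mice in ND, HFD, BC and SMG each. The study's title names a dose-dependent effect of the fermented grain on adiposity. Values are taken as log2 probe levels, so a difference of 1 is a doubling, and they compare arrays for 1 gene, not 1 gene with another.

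A cell that divides first loads the MCM helicase onto replication origins and makes deoxynucleotides, copies its DNA, and then lets CDK1 bound to a cyclin drive mitosis, in which the spindle, the kinetochores and the cytokinesis ring part the chromosomes and the daughters. Many of these genes are silent in resting cells and are switched on together, replication genes by E2F factors at the entry into S phase and mitotic genes by B-MYB and FOXM1 before mitosis. In visceral fat most adipocytes do not divide, while macrophages, fibroblast-like progenitors and endothelial cells can.

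The cell division genes were higher on the high-fat diet than on the normal diet, highest in RMG, and nearest to ND in the groups with fermented grain. In HFD against ND, 17 of the 52 rose and 0 fell (limma, Benjamini-Hochberg adjusted p under 0.05), where 6.54% of all genes tested rose and 2.09% fell. Their median log2 change was 0.58, against -0.04 over all genes, and 49 of 52 changes were above 0, as were 44.1% over all genes. In RMG against ND 40 of 52 rose, with a median change of 0.86, where 10.2% of all genes rose. In SMG against ND 17 rose, with a median of 0.59, where 4.74% of all genes rose. None was called in BC, L_FMG or H_FMG against ND, where the medians were 0.46, 0.20 and 0.11 and the shares of all genes called higher 0.0923%, 0.00615% and 0.00615%. At an unadjusted p under 0.05, limma gave 26 genes in BC, all higher (8.89% of all genes were), and 3 in L_FMG, all higher (6.83%). It gave 6 in H_FMG, of which 5 were higher (4.41%). These comparisons share the same 3 ND arrays. In whole tissue, more dividing cells and more RNA of these genes per cell cannot be told apart.

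The plot of single genes by array shows that the difference ran through most of the set. The mean over the 52 genes was 4.54, 4.58 and 4.55 in ND, in the order of arrays 6, 8 and 9, and 4.95, 5.31 and 5.05 in HFD, in the order of arrays 4, 6 and 7. It was 4.83, 5.25 and 4.98 in BC (arrays 4, 7 and 11), 5.39, 5.22 and 5.56 in RMG (arrays 4, 9 and 10) and 5.57, 5.19 and 4.73 in SMG (arrays 5, 8 and 12). It was 4.83, 4.92 and 4.52 in L_FMG (arrays 4, 8 and 10) and 4.90, 4.59 and 4.51 in H_FMG (arrays 3, 6 and 8), and values below keep these array orders. The HFD, BC, RMG and SMG arrays all lay above the ND arrays, while L_FMG array 10 and H_FMG array 8 lay below all 3 of them. The group means were 4.56 ± 0.02 in ND, 5.10 ± 0.19 in HFD, 5.02 ± 0.21 in BC, 5.39 ± 0.17 in RMG, 5.16 ± 0.42 in SMG, 4.76 ± 0.21 in L_FMG and 4.67 ± 0.21 in H_FMG (SD, n = 3). The ND arrays stood closest together and the SMG arrays farthest apart, and in the order RMG, SMG, HFD, BC, L_FMG, H_FMG and ND each pair of neighbours but BC and L_FMG differed by less than the larger SD of the pair. The p-values here measure the spread between these arrays, taken as separate mice.

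**Figure D1:**
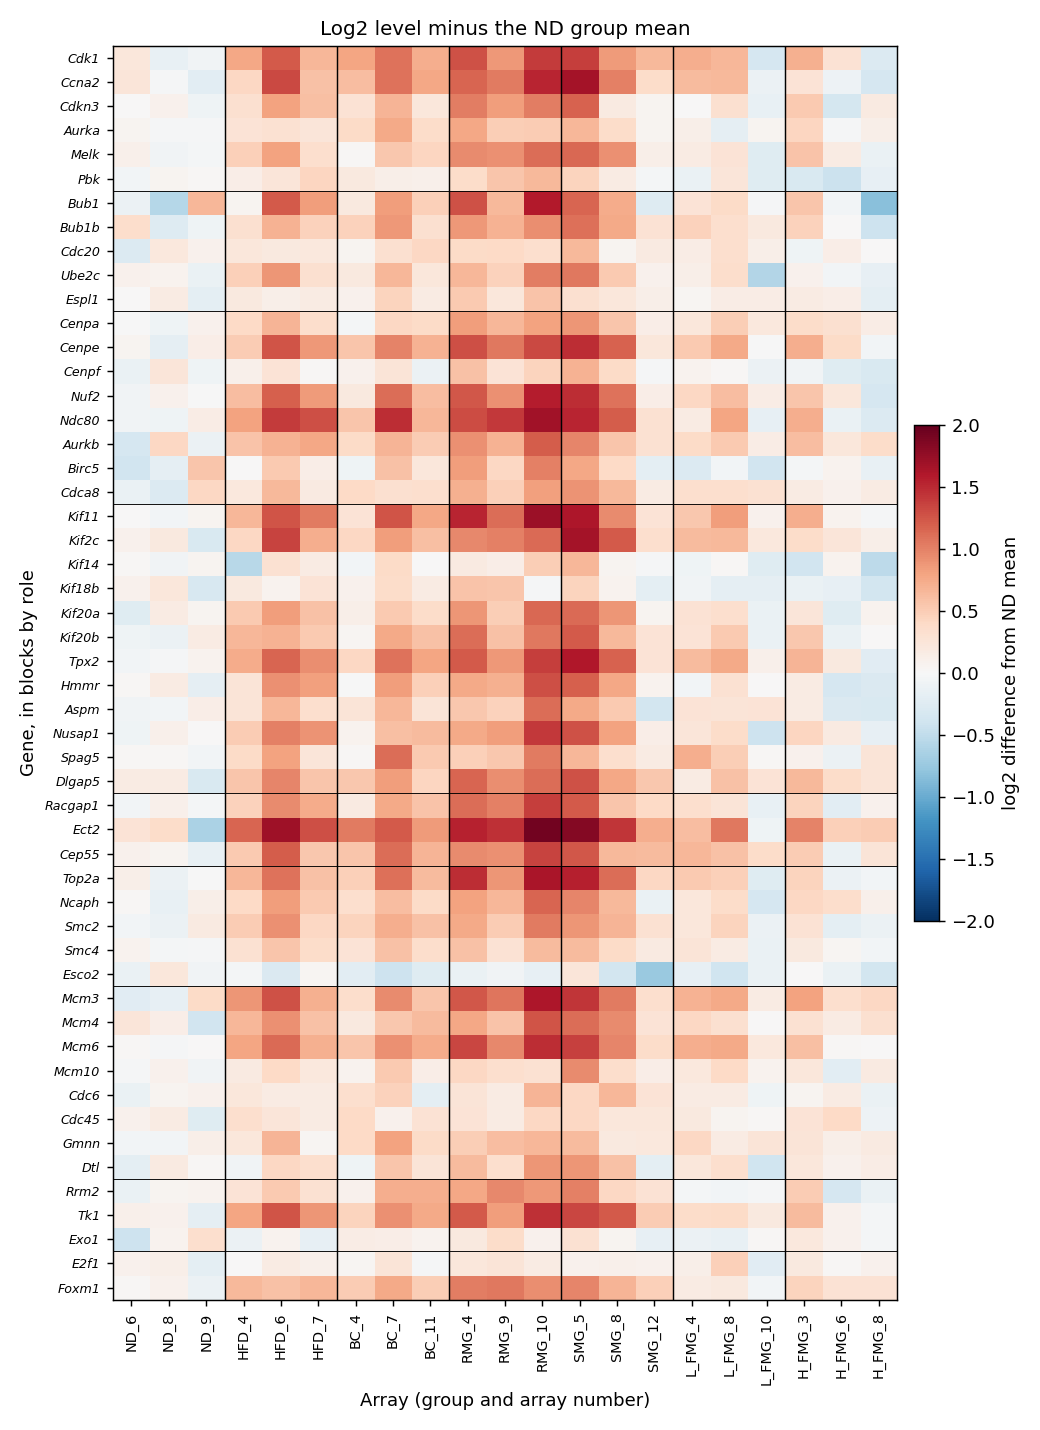
Log2 level of each of the 52 genes (rows, in blocks by role from CDK1 and its partners at the top to the transcription factors at the bottom) on each of the 21 arrays (columns), minus the mean of the 3 ND arrays, with red above and blue below that mean. Most rows are red from the HFD to the SMG columns, with SMG array 12 paler, and near white in the last columns of L_FMG and H_FMG.

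**Figure D2:**
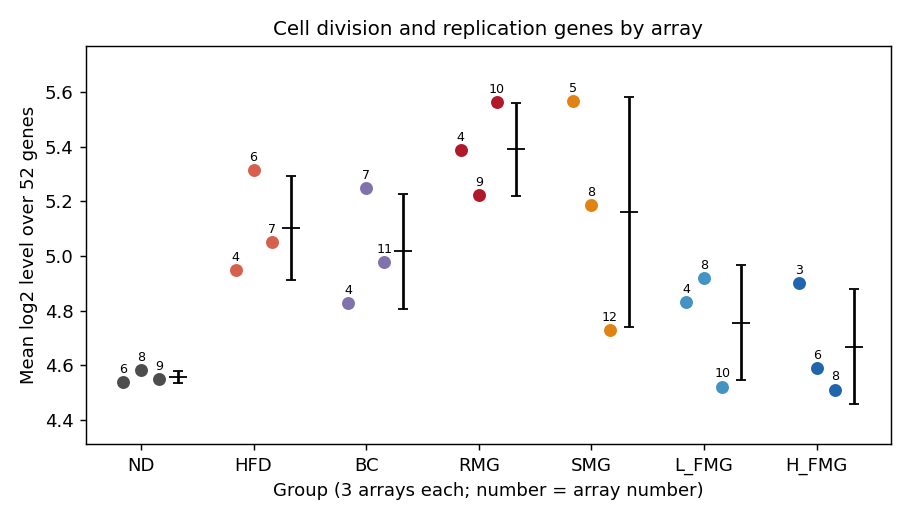
Mean log2 level over the 52 genes for each array (points, with the array number) by group, with the group mean and SD over 3 arrays beside them (black). The 3 ND arrays lie between 4.54 and 4.58, RMG between 5.22 and 5.56, and SMG spans 4.73 to 5.57.

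The group mean was highest in RMG for 47 of the 52 genes, against 19.8% of all genes tested, and lowest in ND for 37, against 24.3% of all genes. SMG had the highest mean for 4 genes and ND for 1, Esco2. H_FMG had the lowest mean for 10, L_FMG for 4 and BC for 1. On single arrays, RMG array 10 gave the highest value for 26 genes and SMG array 5 for 19. A gene stood above all 3 ND arrays for 41, 46 and 42 genes on the HFD arrays and for 50, 48 and 49 on the RMG arrays. In SMG that number was 50, 46 and 30, in BC 29, 48 and 40, in L_FMG 35, 39 and 11, and in H_FMG 40, 17 and 12. Between 20.6% and 29.8% of all genes tested did so on any of these arrays, so L_FMG array 10 and H_FMG array 8 were near that background.

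Promoter sequences of the set were read from RefSeq (GRCm38.p6), since its members moved together. Of the 52 genes, 40 had an entry, with 42 windows from 250 bases before to 50 bases after the start. The motifs were searched on both strands: the cell cycle genes homology region, CHR, spelled TTTGAA or TTTAAA and bound by the MuvB complexes that hold mitotic genes down in resting cells and turn them up before mitosis, the CCAAT box, spelled CCAAT and bound by NF-Y, and E2F sites, spelled TTTCCCGC, TTTGGCGC, TTTGCCGC or TTTCGCGC. A CHR was in 73.8% of the member windows and 24.1% of the 15134 windows of all genes tested. A CCAAT box was in 69% against 36.9%, and an E2F site in 11.9% against 2.74%. A CHR began within the first 50 bases from the start site onward in 45.2% of member windows against 2.7%, and a CCAAT box within the last 50 bases before it in 50% against 9.16%. With the 250 bases before the start alone, the CHR shares were 45.2% and 22.1%. A match describes letters and is not a measured binding site, and short motifs match by composition as well.

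**Figure D3:**
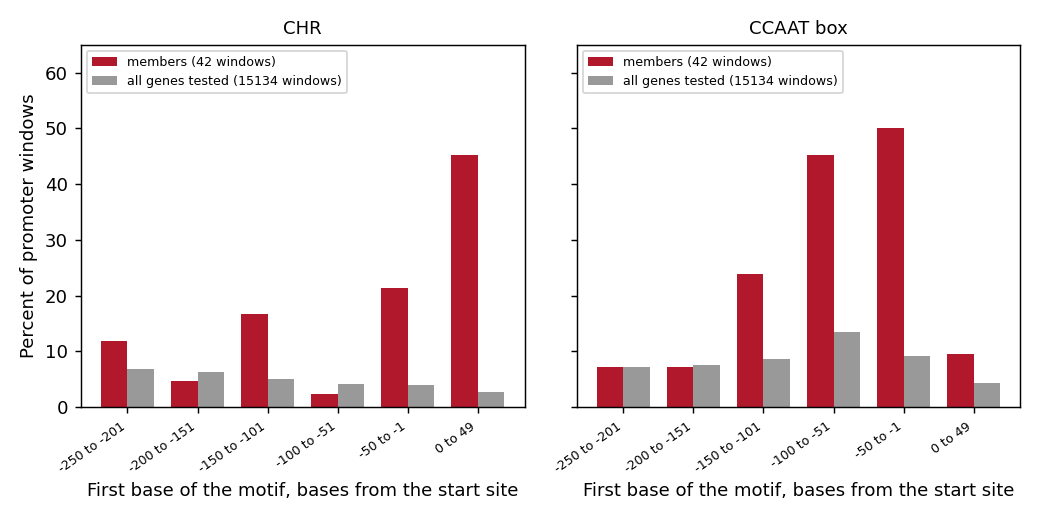
Percent of promoter windows with a CHR (left) or a CCAAT box (right) that begins in each bin of 50 bases from the start site, for the members (red, 42 windows) and all genes tested (grey, 15134 windows). The red bars are highest just after the start for the CHR (45.2%) and just before it for the CCAAT box (50%), where the grey bars are at 2.7% and 9.16%.

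The 150 bases before the start are given for 5 genes that rose in at least 1 comparison with ND, to show how the motifs lie. They are all the members that passed the selection. The stretch had to hold a CHR, in a called or representative gene, or an E2F match, in a replication gene. It also had to overlap no annotated gene, with no other start of the same gene upstream. They run 5′ to 3′ on the gene's strand with the motifs in capitals: Cdk1 at chr10:69352913-69353062 on the minus strand, Kif11 at chr19:37376232-37376381 on the plus strand, Ube2c at chr2:164769779-164769928 on the plus strand, Smc2 at chr4:52439071-52439220 on the plus strand and Mcm6 at chr1:128359706-128359855 on the minus strand.
Cdk1: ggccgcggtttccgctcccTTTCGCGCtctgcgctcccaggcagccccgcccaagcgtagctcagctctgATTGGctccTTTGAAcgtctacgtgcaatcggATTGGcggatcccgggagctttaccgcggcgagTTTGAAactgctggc
Kif11: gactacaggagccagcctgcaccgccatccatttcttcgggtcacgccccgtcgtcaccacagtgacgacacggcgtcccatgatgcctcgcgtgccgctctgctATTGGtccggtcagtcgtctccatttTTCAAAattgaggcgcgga
Ube2c: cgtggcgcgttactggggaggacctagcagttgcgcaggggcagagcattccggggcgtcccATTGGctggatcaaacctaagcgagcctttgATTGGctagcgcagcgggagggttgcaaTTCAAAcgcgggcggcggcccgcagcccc
Smc2: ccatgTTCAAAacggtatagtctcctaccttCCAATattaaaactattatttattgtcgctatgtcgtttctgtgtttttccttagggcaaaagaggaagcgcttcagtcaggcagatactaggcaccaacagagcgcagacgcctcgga
Mcm6: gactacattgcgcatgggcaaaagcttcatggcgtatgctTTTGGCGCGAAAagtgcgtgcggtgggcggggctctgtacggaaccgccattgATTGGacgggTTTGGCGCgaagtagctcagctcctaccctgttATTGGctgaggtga
In the Cdk1 stretch a CCAAT box (read as ATTGG) began 48 bases before the start and a CHR 15 bases before it, a second such pair stood at 80 and 71 bases, and an E2F match at 131. Kif11 had the CCAAT box at 45 and the CHR (read as TTCAAA) at 19 bases, and Ube2c had CCAAT boxes at 88 and 57 and a CHR at 29. Smc2 had a CHR at 145 and a CCAAT box at 119, farther from the start. Mcm6, a replication gene, had no CHR in these 150 bases but E2F matches at 110, 106 and 47, those at 110 and 106 overlapping on opposite strands, beside CCAAT boxes at 57 and 14.

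Among CDK1, its cyclins and mitotic kinases, 1 of 6 rose in HFD and 6 of 6 in RMG against ND. Cdk1, the kinase that drives entry into mitosis, read 4.74, 4.37 and 4.45 in ND, 5.30, 5.75 and 5.18 in HFD and 5.80, 5.38 and 5.92 in RMG. It read 5.31, 5.60 and 5.25 in BC and 5.91, 5.37 and 5.17 in SMG, and 5.24, 5.18 and 4.18 in L_FMG and 5.23, 4.81 and 4.25 in H_FMG. All arrays of HFD, BC, RMG and SMG were above the ND arrays, and those of L_FMG and H_FMG overlapped them. Its log2 change from ND was 0.89 ± 0.27 (SE) in HFD and 1.18 ± 0.27 (SE) in RMG, with limma's adjusted p at 0.0402 and 0.00443. Ccna2, cyclin A2, which serves S phase and early mitosis, read 5.19, 4.92 and 4.74 in ND, 5.37, 6.27 and 5.53 in HFD and 6.12, 5.99 and 6.47 in RMG. It read 6.62, 5.96 and 5.31 in SMG and 5.22, 4.85 and 4.62 in H_FMG. Its HFD, RMG and SMG arrays stood clear of ND, its H_FMG arrays clear of HFD, and the call in HFD missed the threshold (change 0.77, limma adjusted p = 0.0888).

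The other kinases and the phosphatase of this group were called in RMG and not in HFD. Cdkn3, a phosphatase that acts on cyclin-dependent kinases, read 4.75, 4.83 and 4.65 in ND, 5.06, 5.54 and 5.34 in HFD and 5.77, 5.58 and 5.77 in RMG, and 5.26, 4.39 and 4.92 in H_FMG. Melk, a kinase found in dividing cells, read 4.15, 3.98 and 4.01 in ND, 4.53, 4.86 and 4.39 in HFD and 5.0, 4.96 and 5.16 in RMG, and 4.62, 4.21 and 3.91 in H_FMG. For both, every RMG array was above every HFD and every ND array, although RMG against HFD called neither. Aurka, the Aurora kinase of the spindle poles, read 4.82, 4.74 and 4.74 in ND, 5.04, 5.07 and 5.01 in HFD and 5.54, 5.26 and 5.28 in RMG. Its H_FMG arrays were at 5.20, 4.75 and 4.88, so that array 3 stood above all HFD arrays. Pbk, a mitotic kinase, read 4.47, 4.57 and 4.54 in ND, 4.66, 4.76 and 4.95 in HFD and 4.89, 5.08 and 5.17 in RMG, and 4.22, 4.09 and 4.35 in H_FMG. Pbk was the member whose H_FMG arrays all lay below all ND arrays, with a change of -0.31 that was not called (limma adjusted p = 0.586). Of all genes tested, 5.49% had H_FMG arrays all below ND.

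The checkpoint and anaphase genes rose in RMG for 4 of 5 and in HFD for 0 of 5, where 2 were higher at an unadjusted p under 0.05 in limma (14.3% of all genes). Bub1b, the checkpoint kinase BubR1 that holds back anaphase until chromosomes are attached, read 4.94, 4.33 and 4.50 in ND, 4.91, 5.29 and 5.05 in HFD and 5.46, 5.28 and 5.52 in RMG. It read 5.05, 5.45 and 4.91 in BC and 5.69, 5.34 and 4.88 in SMG, and 5.05, 4.93 and 4.79 in L_FMG and 5.05, 4.59 and 4.18 in H_FMG. Only the RMG arrays of Bub1b stood clear of ND among the 6 high-fat groups, with a change of 0.83 ± 0.21 (SE) (limma adjusted p = 0.0116). Bub1, its partner kinase, read 3.27, 2.81 and 4.05 in ND, 3.44, 4.60 and 4.22 in HFD and 4.66, 4.03 and 4.96 in RMG, and 3.94, 3.33 and 2.55 in H_FMG, and its RMG arrays overlapped ND although it was called (limma adjusted p = 0.0447). Ube2c, the ubiquitin-conjugating enzyme of the anaphase-promoting complex, read 5.15, 5.14 and 4.93 in ND, 5.55, 5.95 and 5.39 in HFD and 5.73, 5.53 and 6.10 in RMG. Espl1, separase, which cuts cohesin at anaphase, read 4.82, 4.99 and 4.63 in ND, 5.01, 4.94 and 4.98 in HFD and 5.34, 5.04 and 5.39 in RMG. Its change in RMG was 0.44, and Cdc20, the activator of the anaphase-promoting complex, had 0.37 and was not called. In H_FMG, Ube2c read 5.15, 5.01 and 4.90 and Espl1 4.98, 4.96 and 4.62.

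Of 8 kinetochore and chromosomal passenger genes, 3 rose in HFD, 7 in RMG and 2 in SMG against ND. Ndc80, the kinetochore subunit that grips microtubules, read 4.61, 4.60 and 4.83 in ND, 5.49, 6.08 and 5.97 in HFD and 5.98, 6.09 and 6.36 in RMG. It read 5.23, 6.16 and 5.35 in BC and 6.21, 5.89 and 4.99 in SMG, and 4.84, 5.47 and 4.52 in L_FMG and 5.41, 4.54 and 4.40 in H_FMG. Its HFD arrays were above all arrays of ND, L_FMG and H_FMG, and its change from ND of 1.17 ± 0.31 (SE) was the largest of the set after Ect2 (limma adjusted p = 0.0222). Nuf2, its partner in the same complex, read 4.51, 4.66 and 4.57 in ND, 5.20, 5.77 and 5.43 in HFD and 5.82, 5.49 and 6.15 in RMG, and 5.13, 4.81 and 4.25 in H_FMG, and just missed the threshold in HFD (limma adjusted p = 0.0571). Cenpe, a kinesin of the kinetochore, read 4.75, 4.51 and 4.83 in ND, 5.20, 5.94 and 5.56 in HFD and 5.98, 5.74 and 6.01 in RMG. It read 5.25, 5.68 and 5.38 in BC and 6.17, 5.87 and 4.92 in SMG, and 5.21, 5.45 and 4.68 in L_FMG and 5.42, 5.07 and 4.63 in H_FMG, so that ND was below all arrays of HFD, BC, RMG and SMG.

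Cenpa, the histone H3 variant of centromeres, read 5.19, 5.12 and 5.29 in ND, 5.60, 5.88 and 5.55 in HFD and 6.04, 5.86 and 6.0 in RMG, and 6.08, 5.76 and 5.34 in SMG. It rose in RMG and SMG, and its arrays in L_FMG and H_FMG were also all above ND, though not called. Aurkb, the kinase of the passenger complex, read 4.45, 5.20 and 4.67 in ND, 5.35, 5.47 and 5.56 in HFD and 5.69, 5.47 and 5.99 in RMG. Cdca8, borealin, read 3.77, 3.63 and 4.33 in ND, 4.12, 4.56 and 4.09 in HFD and 4.62, 4.39 and 4.73 in RMG, and Birc5, survivin, read 3.18, 3.39 and 4.12 in ND, 3.57, 4.09 and 3.70 in HFD and 4.41, 3.98 and 4.58 in RMG. Both of these probes were dim, as defined below, and the RMG arrays of Birc5 overlapped ND although it was called (limma adjusted p = 0.0427). Cenpf, a large kinetochore protein, read 4.28, 4.66 and 4.33 in ND, 5.0, 4.70 and 4.86 in RMG and 4.35, 4.18 and 4.11 in H_FMG. It was called in H_FMG against RMG and in no comparison with ND. In H_FMG, Cenpa read 5.56, 5.52 and 5.35 and Aurkb 5.39, 5.0 and 5.14. Cdca8 stood there at 4.07, 4.0 and 4.07 and Birc5 at 3.53, 3.64 and 3.42.

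The spindle group is the largest, with 12 genes, of which 4 rose in HFD, 9 in RMG and 3 in SMG against ND. Kif11, the motor that pushes spindle poles apart, read 4.46, 4.40 and 4.52 in ND, 5.12, 5.72 and 5.50 in HFD and 5.98, 5.57 and 6.17 in RMG. It read 4.73, 5.72 and 5.24 in BC and 6.08, 5.41 and 4.73 in SMG, and 5.0, 5.30 and 4.54 in L_FMG and 5.18, 4.53 and 4.43 in H_FMG. The arrays of every high-fat group except H_FMG were above ND, and the change was 0.99 ± 0.29 (SE) in HFD and 1.45 ± 0.29 (SE) in RMG (limma adjusted p = 0.0386 and 0.00195). Tpx2, which activates Aurora A on the spindle, read 4.81, 4.84 and 4.93 in ND, 5.60, 6.03 and 5.79 in HFD and 6.09, 5.73 and 6.24 in RMG, and 6.46, 6.04 and 5.13 in SMG and 5.54, 5.05 and 4.63 in H_FMG. Kif2c, a kinesin that takes microtubules apart, read 4.08, 4.19 and 3.68 in ND, 4.41, 5.34 and 4.72 in HFD and 4.95, 4.99 and 5.12 in RMG, and 5.65, 5.22 and 4.33 in SMG. On the H_FMG arrays Kif2c read 4.35, 4.23 and 4.11. Dlgap5, which stabilises spindle fibres, read 4.95, 4.95 and 4.48 in ND, 5.35, 5.76 and 5.35 in HFD and 5.95, 5.72 and 5.90 in RMG, and 6.06, 5.56 and 5.33 in SMG and 5.44, 5.16 and 5.05 in H_FMG. Each of these 3 rose in HFD, RMG and SMG, with changes in HFD of 0.70 to 0.95.

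A further 5 spindle genes were called in RMG against ND and in no other comparison with ND. Kif20a, a motor of the central spindle, read 4.10, 4.51 and 4.40 in ND, 4.87, 5.17 and 4.92 in HFD and 5.23, 4.83 and 5.49 in RMG, and 4.58, 4.10 and 4.41 in H_FMG. Kif20b, a related motor, read 4.18, 4.15 and 4.43 in ND, 4.92, 4.95 and 4.78 in HFD and 5.38, 4.84 and 5.32 in RMG, and 4.80, 4.13 and 4.27 in H_FMG. Both had HFD and RMG arrays clear of ND. Nusap1, a microtubule-binding spindle protein, read 4.82, 5.01 and 4.91 in ND, 5.42, 5.92 and 5.81 in HFD and 5.67, 5.74 and 6.33 in RMG, and 5.34, 5.09 and 4.75 in H_FMG. Hmmr, which binds hyaluronan and spindle microtubules, read 3.90, 4.03 and 3.69 in ND, 4.13, 4.79 and 4.69 in HFD and 4.62, 4.58 and 5.16 in RMG, and 4.04, 3.53 and 3.58 in H_FMG. Aspm, a spindle pole protein, read 3.99, 4.0 and 4.19 in ND, 4.31, 4.72 and 4.40 in HFD and 4.60, 4.52 and 5.18 in RMG, and 4.23, 3.77 and 3.76 in H_FMG. In all 3 the H_FMG arrays lay below every HFD array and every RMG array. Kif14, Kif18b and Spag5 were not called against ND, with changes in RMG of 0.26, 0.37 and 0.68. Kif18b, a motor at microtubule ends, read 5.49, 5.47 and 4.89 in RMG and 4.78, 4.76 and 4.56 in H_FMG and fell in H_FMG against RMG.

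The 3 cytokinesis genes were called in HFD, RMG and SMG alike. Ect2, which sets up the cleavage furrow, read 5.05, 5.13 and 4.13 in ND, 5.93, 6.46 and 6.06 in HFD and 6.31, 6.23 and 6.70 in RMG. It read 5.81, 6.0 and 5.62 in BC and 6.60, 6.20 and 5.50 in SMG, and 5.39, 5.83 and 4.69 in L_FMG and 5.76, 5.24 and 5.27 in H_FMG. Every HFD, BC, RMG, SMG and H_FMG array was above ND, and L_FMG array 10 overlapped it. Its change of 1.38 ± 0.29 (SE) in HFD, a fold of 2.6, and of 1.65 ± 0.29 (SE) in RMG were the largest of the 52 (limma adjusted p = 0.00702 and 0.000761). Racgap1, the partner of Ect2 in the central spindle, read 4.76, 4.92 and 4.78 in ND, 5.28, 5.77 and 5.56 in HFD and 5.93, 5.83 and 6.21 in RMG. It read 5.0, 5.58 and 5.39 in BC and 6.05, 5.37 and 5.22 in SMG, and 5.15, 5.08 and 4.67 in L_FMG and 5.26, 4.61 and 4.91 in H_FMG. Its RMG arrays were above all arrays of HFD, and the HFD arrays above those of L_FMG and H_FMG. Cep55, the scaffold of the final cut between daughters, read 3.73, 3.70 and 3.49 in ND, 4.17, 4.85 and 4.18 in HFD and 4.58, 4.56 and 4.99 in RMG, and 4.88, 4.29 and 4.28 in SMG and 4.15, 3.51 and 3.89 in H_FMG.

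Of 5 genes of chromosome structure and cohesion, 1 rose in HFD, 4 in RMG and 2 in SMG against ND. Top2a, the topoisomerase that untangles sister chromatids, read 4.87, 4.64 and 4.74 in ND, 5.42, 5.84 and 5.34 in HFD and 6.22, 5.63 and 6.38 in RMG. It read 5.23, 5.85 and 5.39 in BC and 6.31, 5.87 and 5.16 in SMG, and 5.27, 5.23 and 4.51 in L_FMG and 5.20, 4.64 and 4.70 in H_FMG. Its HFD arrays were clear of ND on 1 side and of L_FMG and H_FMG on the other, yet the call in HFD missed the threshold (change 0.78 ± 0.26 (SE), limma adjusted p = 0.0658). Smc2, a core subunit of condensin, read 5.34, 5.28 and 5.58 in ND, 5.90, 6.32 and 5.82 in HFD and 6.16, 5.90 and 6.44 in RMG, and 6.28, 6.08 and 5.70 in SMG and 5.69, 5.20 and 5.28 in H_FMG. Smc4, its partner, read 6.73, 6.62 and 6.63 in ND, 6.97, 7.21 and 7.03 in HFD and 7.25, 6.95 and 7.29 in RMG, and 6.85, 6.70 and 6.60 in H_FMG. Ncaph, another condensin subunit, read 4.91, 4.73 and 5.0 in ND, 5.28, 5.72 and 5.40 in HFD and 5.69, 5.55 and 6.05 in RMG. On the H_FMG arrays Ncaph read 5.30, 5.23 and 4.98. All 3 had HFD and RMG arrays above ND. Esco2, which acetylates cohesin in S phase, went the other way without a call, at -0.10 in HFD and -0.13 in RMG.

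Among 8 genes of replication licensing and firing, 3 rose in HFD, 4 in RMG and 3 in SMG against ND, and the 3 in HFD were subunits of the MCM helicase. Mcm6 read 5.46, 5.41 and 5.45 in ND, 6.23, 6.57 and 6.15 in HFD and 6.77, 6.40 and 6.92 in RMG. It read 6.0, 6.35 and 6.18 in BC and 6.81, 6.42 and 5.81 in SMG, and 6.16, 6.19 and 5.65 in L_FMG and 6.04, 5.47 and 5.44 in H_FMG. All groups but H_FMG were clear of ND, with changes of 0.88 ± 0.21 (SE) in HFD, 1.26 ± 0.21 (SE) in RMG and 0.91 ± 0.21 (SE) in SMG (limma adjusted p = 0.0131, 0.000538 and 0.0176). Mcm3 read 4.68, 4.74 and 5.30 in ND, 5.79, 6.19 and 5.62 in HFD and 6.15, 5.98 and 6.52 in RMG, and 6.34, 5.95 and 5.24 in SMG. Mcm4 read 5.38, 5.27 and 4.76 in ND, 5.80, 6.06 and 5.72 in HFD and 5.91, 5.71 and 6.40 in RMG, and 6.25, 6.09 and 5.41 in SMG. These too rose in HFD, RMG and SMG. In H_FMG, Mcm3 read 5.72, 5.25 and 5.32 and Mcm4 5.45, 5.30 and 5.46. Gmnn, geminin, which blocks a second loading of the helicase, read 4.11, 4.12 and 4.29 in ND, 4.39, 4.85 and 4.21 in HFD and 4.66, 4.79 and 4.84 in RMG and was called in RMG and not in HFD or SMG. Its H_FMG arrays were at 4.43, 4.28 and 4.35. Cdc6 and Mcm10, which help load and start the helicase, Cdc45, a part of the moving helicase, and Dtl, which marks the loader Cdt1 for destruction, were not called, with changes in RMG of 0.28 to 0.62.

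In nucleotide supply, Tk1, the thymidine kinase of S phase, read 5.21, 5.20 and 4.93 in ND, 5.90, 6.36 and 5.99 in HFD and 6.34, 5.94 and 6.57 in RMG. It read 6.44, 6.33 and 5.62 in SMG, 5.48, 5.49 and 5.30 in L_FMG and 5.75, 5.20 and 5.07 in H_FMG, and was clear of ND in all groups but H_FMG. It rose by 0.97 ± 0.21 (SE) in HFD (limma adjusted p = 0.00718). Rrm2, the regulated subunit of ribonucleotide reductase, read 4.06, 4.25 and 4.26 in ND, 4.46, 4.71 and 4.49 in HFD and 4.96, 5.15 and 5.06 in RMG. It read 4.28, 4.91 and 4.92 in BC and 5.19, 4.61 and 4.48 in SMG, and 4.15, 4.13 and 4.16 in L_FMG and 4.69, 3.86 and 4.05 in H_FMG. It was called in RMG (0.86) and not in HFD (0.36), and its RMG arrays were above every HFD array, though RMG against HFD did not call it. Exo1, a repair nuclease, was called in no comparison and stood at -0.07 in HFD.

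Of the transcription factors, Foxm1, which switches on mitotic genes, read 3.83, 3.89 and 3.69 in ND, 4.45, 4.39 and 4.46 in HFD and 4.83, 4.86 and 4.73 in RMG. It read 4.30, 4.56 and 4.29 in BC and 4.77, 4.48 and 4.27 in SMG, and 3.97, 3.99 and 3.75 in L_FMG and 4.24, 4.09 and 4.09 in H_FMG. Its RMG arrays lay above every HFD array, its HFD arrays above every ND, L_FMG and H_FMG array, and its spread within groups was small, though the probe was dim. Its change of 0.63 ± 0.13 (SE) in HFD had the smallest adjusted p of the set, 0.00521 by limma, and it was 1.00 ± 0.13 (SE) in RMG. E2f1, a factor of the G1 to S switch, was at 0.09 in HFD and 0.22 in RMG, and no comparison called it. Dim probes, with a mean at or below 4.30, the median over all probes, were those of Bub1, Birc5, Cdca8, Kif14, Hmmr, Spag5, Cep55, Esco2, Cdc6 and Foxm1. Of these 10 genes 2 were called in HFD against ND, against 15 of the 42 brighter ones, and 6 of 10 against 34 of 42 in RMG. Brighter genes were called more often over the whole table too. Fitted without the dim genes, 16.4% were called in HFD and 26.6% in RMG, where 8.63% and 14.8% of all genes were. Across roles, 40 genes were called in at least 1 of HFD, RMG and SMG against ND, 14 in all 3, and 12 in none. These comparisons share the ND arrays and called 8.63%, 14.8% and 5.83% of all genes in either direction. The overlap of the calls over all genes was not counted, so the 14 cannot be set against a background.

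**Figure D4:**
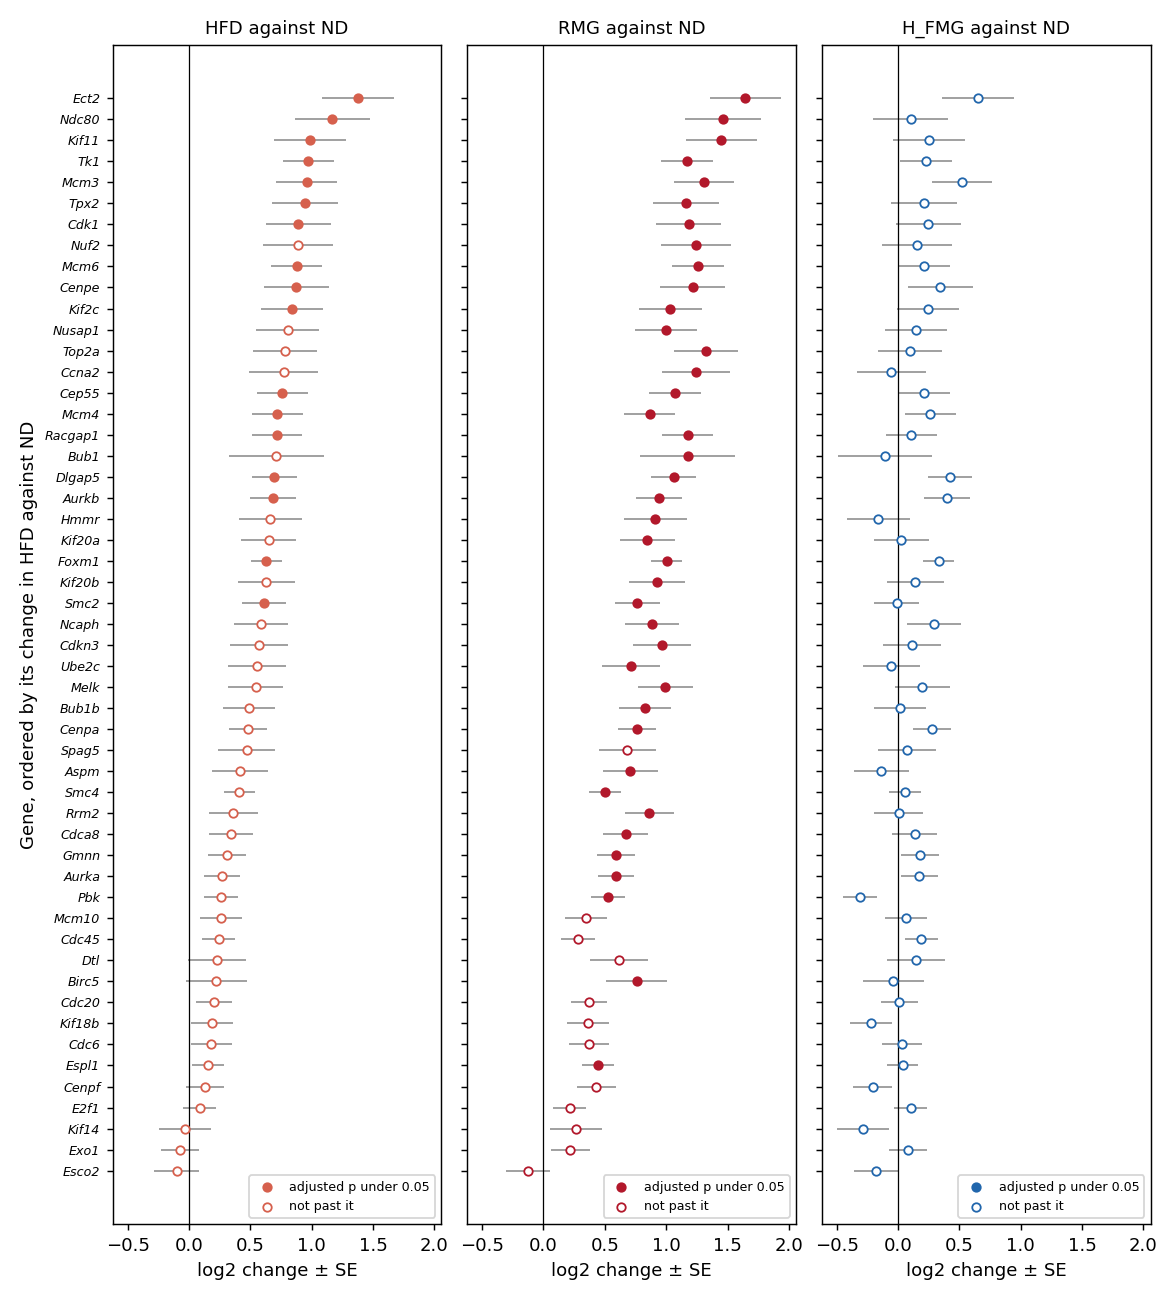
Log2 change from ND with its standard error for each of the 52 genes in HFD (left), RMG (middle) and H_FMG (right), ordered by the change in HFD, with filled points for an adjusted p under 0.05. There are 17 filled points in HFD, 40 in RMG and 0 in H_FMG.

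The supplement groups were also set against HFD, with the same 3 HFD arrays in each comparison, and none of the 52 genes was called in any of the 5 (limma, adjusted p under 0.05). Over all genes 0.00615% were called in H_FMG against HFD and 0% in each of the other 4. In H_FMG 50 of 52 changes were below 0 (46.4% of all genes), with a median of -0.45 (all genes 0.02), 28 genes lower at an unadjusted p under 0.05 (8.31% of all genes) and 25 with arrays all below HFD (11.4% of all genes). In L_FMG 51 were below 0 (48.8% of all genes), with a median of -0.37, 16 lower at an unadjusted p under 0.05 (5.02% of all genes) and 18 with arrays all below HFD (10.1%). In RMG 51 were above 0 (54.1% of all genes), with a median of 0.29, 6 higher at an unadjusted p under 0.05 (1.64%) and 11 with arrays all above HFD (6.35%). Without H_FMG array 3, 2 members were called lower in H_FMG, and 257 of all genes were called in place of 1. In BC and SMG the medians were -0.08 and 0.05, and limma gave 0 members at an unadjusted p under 0.05 in either, where 5.18% and 1.85% of all genes had one.

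The 5 genes with the largest differences from HFD in H_FMG were Ndc80 at -1.06, Ccna2 at -0.83, Hmmr at -0.82, Bub1 at -0.82 and Tk1 at -0.75. For all but Bub1 the arrays of the groups did not overlap. In L_FMG they were Ndc80 at -0.90, Ect2 at -0.84, Nusap1 at -0.74, Tk1 at -0.66 and Ube2c at -0.60. The smallest adjusted p by limma was 0.128 in H_FMG, for Pbk (-0.57 ± 0.14 (SE)), and 0.454 in L_FMG, for Foxm1 (-0.53 ± 0.13 (SE)). In RMG the largest differences from HFD were Birc5 at 0.54, Top2a at 0.54, Rrm2 at 0.50, Ccna2 at 0.47 and Racgap1 at 0.46. In BC they were Nusap1 at -0.37, Ect2 at -0.34, Mcm3 at -0.34, Kif20a at -0.31 and Tk1 at -0.27. In SMG none went past 0.27, the value of Cdc6, followed by Kif14, Top2a, Ccna2 and Kif2c.

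A dose effect of the fermented grain was not called for any member. Between H_FMG and L_FMG the median difference was -0.08, with 0 members called and 0 at an unadjusted p under 0.05 by limma, where 0% and 3.91% of all genes were. Along the percent of fermented grain (0 in HFD, 0.3 in L_FMG and 0.9 in H_FMG) the median slope was -0.43 log2 units per percent, 24 of 52 genes had a falling slope at an unadjusted p under 0.05 (7.35% of all genes), and limma called 0, as it called 0% of all genes. The F test over the 6 high-fat groups called 1 member, Foxm1 (limma adjusted p = 0.0443), where it called 0.0492% of all genes, and 0 members and 0 genes with the array number as a replicate block. At an unadjusted p under 0.05 it gave 37 of 52 members, against 12.2% of all genes. Without SMG array 12 the F test called 23 members, without H_FMG array 3 it called 5 and without SMG array 5 it called 3, where it called 657, 150 and 67 of all genes in place of 8. Without BC array 4 or 7 it called 1 member. Without any 1 of the other high-fat arrays it called 0.

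RMG and the fermented grain groups, whose means stood at opposite ends of the high-fat groups, were then compared directly, a choice made after their values were seen. In H_FMG against RMG 30 of 52 genes fell and 0 rose, with a median of -0.79 (all genes 0.01), where 4.92% of all genes fell and 2.28% rose, and 47 genes had H_FMG arrays all below RMG (14.2% of all genes). The calls covered 5 of 6 kinase and cyclin genes, 2 of 5 checkpoint, 4 of 8 kinetochore, 9 of 12 spindle, 3 of 3 cytokinesis, 3 of 5 chromosome structure and 1 of 8 replication genes. Tk1, Rrm2 and Foxm1 were the others. Ndc80 fell by 1.36 and Ccna2 by 1.30 on the log2 scale, with limma's adjusted p at 0.0144 and 0.0124. In L_FMG against RMG 2 genes fell, Foxm1 by 0.90 and Racgap1 by 1.03, where 0.209% of all genes fell, and the median was -0.64. Leaving out 1 array at a time left 0 or 1 of these 2 calls. Against SMG, the steamed grain at the same 0.3% by weight, L_FMG gave 0 calls by limma, with a median of -0.40 and 24 genes lower at an unadjusted p under 0.05 (3.23% of all genes). No gene was called there over the whole table (0%). Without H_FMG array 8, 6 or RMG array 4 or 10, the count in H_FMG against RMG was 1, 5, 3 or 8, and the count over all genes, 1169 with every array, was 32, 395, 136 or 575. Without RMG array 9, 18 members and 395 of all genes were called.

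Single arrays also carried part of the counts against ND. Without HFD array 6, the highest of its group, 1 of 52 genes, Foxm1, was called in HFD against ND and 368 of all genes, in place of 1403. Without ND array 6, 8 or 9 or HFD array 7 the count was 9, 6, 7 or 8, and over all genes 1457, 987, 1362 or 826. The median change stayed between 0.46 and 0.62 over these fits. In SMG against ND the count was 0 without array 5 or array 8 and 37 without array 12, whose mean over the set was the nearest to ND, where the counts over all genes were 3, 11 and 1563 in place of 948. The count of members was 6, 11 and 12 without ND arrays 8, 9 and 6, and the count over all genes 292, 996 and 794. In RMG against ND the count of members ranged from 27 to 40, and over all genes from 1585 to 2457, in place of 2401.

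Genes of the same pathways outside the set moved with it in part. Of all genes tested, 6.54% rose in HFD against ND, 10.2% in RMG and 4.74% in SMG. Of 42 other mitosis genes measured, 6 rose in HFD against ND, 12 in RMG and 4 in SMG, and none fell. They included Mad2l1, a checkpoint protein, with a log2 change of 1.12 in HFD, and Mastl, a kinase that keeps mitotic phosphates in place, with 0.93. Of 39 other replication genes, 4 rose in HFD, 17 in RMG and 4 in SMG. Pcna, the sliding clamp of DNA polymerases, had 1.03 in HFD, Dbf4, the activator of the origin kinase CDC7, 0.79, Dck, a nucleoside kinase, 0.70, and Prim2, a primase subunit, 0.63. Of 13 DNA repair genes 0 rose in HFD, where 3 were higher at an unadjusted p under 0.05 by limma (14.3% of all genes), and 2 rose in RMG, Fancd2 among them. In H_FMG against RMG, 10 of the mitosis and 10 of the replication genes fell, where 4.92% of all genes did.

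Brakes on the cycle and G1 regulators rose for 4 of 23 genes in HFD (6.54% of all genes rose), and these 4 were of both kinds. Cdk6 and Cdk4, the kinases of G1, had changes of 1.10 and 0.56. Cdkn1a, the inhibitor p21, had 0.90, and Mdm2, which degrades p53, 0.62. In RMG against ND 6 rose (10.2% of all genes did), and the same 4 were among them. In H_FMG against RMG 5 fell (4.92% of all genes did).

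Markers of some cell types, macrophages among them, rose with the set, while some endothelial and adipocyte markers fell. The part of these cell types in the set's change was not tested. Of 15 macrophage markers 12 rose in HFD against ND (median change 0.96), 13 in RMG and 10 in SMG, and 10 fell in H_FMG against RMG. The shares of all genes were 6.54%, 10.2% and 4.74% higher against ND and 4.92% lower in H_FMG against RMG. Of 11 markers of lipid-associated macrophages, which gather around dying adipocytes, 9 rose in HFD (median 2.01). The summed linear level of the macrophage list ran from 4794 to 7521 on the ND arrays, 10751 to 12569 in HFD, 7532 to 10851 in BC, 12154 to 13819 in RMG, 7462 to 13267 in SMG, 7906 to 9695 in L_FMG and 5544 to 9223 in H_FMG. SMG array 12, the lowest SMG array for the cell division genes, was also the lowest for these markers. ND array 9 had the highest macrophage mean of its group, 7.97, and L_FMG array 10 and H_FMG array 6 also stood at 7.97, and the cell division means of these 3 arrays were 4.55, 4.52 and 4.59. BC array 4, the next above them with a macrophage mean of 8.0, had a cell division mean of 4.83. The defining markers Adgre1, Csf1r and Cd68 were above 4.30, the median over all probes, on every array, with Adgre1 from 7.33 to 9.69.

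**Figure D5:**
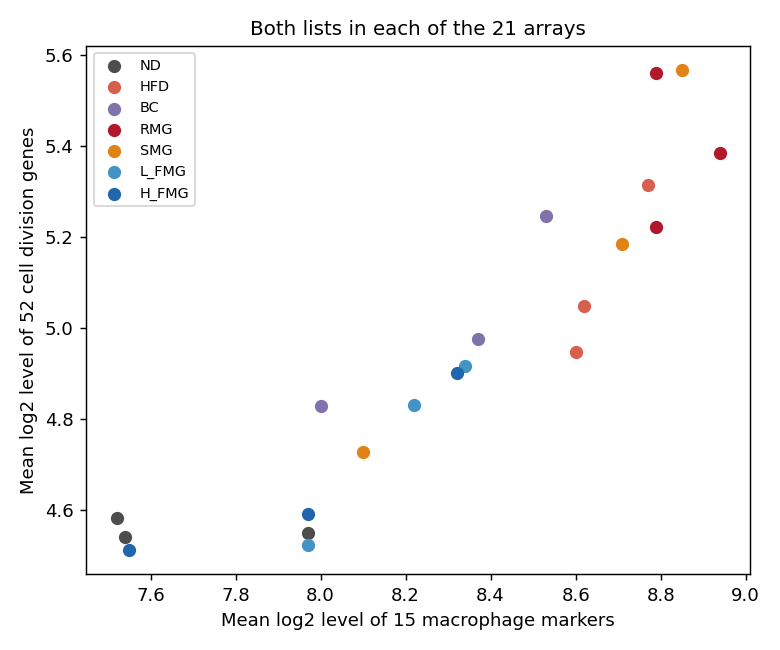
Mean log2 level of the 52 cell division genes against that of 15 macrophage markers, 1 point for each of the 21 arrays, coloured by group. The ND points lie at 7.52 to 7.97 and 4.54 to 4.58, and the RMG points at 8.79 to 8.94 and 5.22 to 5.56.

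Fibroblast and progenitor markers rose for 5 of 9 genes in HFD and 5 of 9 in RMG, Lum and Col1a2 among them, and 5 fell in H_FMG against RMG. Of all genes, 6.54% rose in HFD and 10.2% in RMG, and 4.92% fell in H_FMG against RMG. Mast cell markers rose for 2 of 8 in HFD, Cpa3 and Mcpt4. Of 3 T cell markers 1 rose in HFD, Il7r, and of 4 B cell markers 0, where limma gave 1 lower at an unadjusted p under 0.05 (11% of all genes). Endothelial markers fell for 2 of 8 in HFD and 7 of 8 in RMG, where 2.09% and 4.53% of all genes fell. Adipocyte markers, which check the tissue label, had a mean log2 level of 9.19 to 10.11 over the arrays, against a median of 4.30 over all probes, and fell for 3 of 7 in HFD and 5 of 7 in RMG, beside the same shares of all genes. Of 7 germ cell genes 1 rose in HFD, Odf1, beside the same 6.54% of all genes. Of 6 epididymis genes and 6 mesothelial genes 0 rose, with 0 at an unadjusted p under 0.05 in either list by limma (25.3% of all genes).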

How the data were processed

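Gene expression was measured on 21 GeneChip whole-transcript arrays of mouse epididymal fat, 3 per group. The authors deposited 1 value per probe and array, read here as a log2 level. Per the labels' protocols, RNA was extracted with Trizol and the cDNA was labelled with biotin. The sources used here do not say how signals were summarised or normalized. The log base, unstated too, was inferred from the values (0.84 to 12.7). Array medians lay between 4.23 and 4.39. Columns were matched to samples by name, with 0 left over. The table had 24292 rows, 24291 of them complete, and is only a part of the array: with few exceptions, genes on chromosomes 7, 8, 9 and X were not analysed here, among them Mki67 and Plk1.

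Of the probes, 17067 carried 1 gene symbol, 1139 several and 6085 none, by the platform annotation with symbols updated through the RefSeq table of GRCm38.p6. The brightest probe stood for each of the 16248 genes. No further normalization was applied. A linear model with 1 coefficient per group was fitted to every gene over all 21 arrays (limma 3.58.1, R 4.3.3), with eBayes and an intensity trend. Tests were two-sided, with Benjamini-Hochberg adjustment over all genes of a comparison and a threshold of 0.05. "Rose" and "fell" are used for genes past it. The test was tested on simulated data in which 200 of 16248 genes were changed. Of changes of 0.5 log2, limma recovered 34% in HFD against ND and 26% in H_FMG against HFD. For changes of 1 it recovered 89% and 90%. Whether these shares hold for the measured arrays was not tested. On those arrays the SD of the mean over the 52 genes ran from 0.02 in ND to 0.42 in SMG. In H_FMG against HFD limma called 0 of the 52 genes, the lowest change being -1.06. Nothing in the labels gives a batch or a scan date, and the number of arrays limits the precision.

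The members, gene lists and rules were chosen with earlier results of these data known. All 52 measured members may be named. Array values are given for members past the threshold in any comparison and for 1 representative of each role. For the representatives they cover all 7 groups. For most other members the arrays of BC and L_FMG, and often of SMG, are left out. From other lists, the genes with the smallest p in HFD against ND or past the threshold are named in selection.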

Additional observations from a re-analysis of the deposited data

How the results depend on the processing

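No member called in HFD, RMG or SMG against ND, or in H_FMG or L_FMG against RMG, changed direction there under any alternative run. Members without a call were not followed in this way. In HFD against ND the 17 calls became 12 to 23 with quantile normalization, arrays centred on their medians, dim genes left out, every probe tested, the mean over probes, no intensity trend or only the arrays compared, and 27 with array weights. The share of all genes called was 8.63% in the main fit, 4.76% to 16.4% in those settings and 15% with array weights. Leaving out 1 array gave 1 to 14. For SMG against ND, array weights gave 35 calls and the fit to its own 6 arrays 0, and leaving out 1 array gave 0 to 37. There 17.9% of all genes were called with array weights and 0% with its own arrays, in place of 5.83%. For H_FMG against RMG, leaving out 1 array gave 1 to 31. Array weights gave 6 members lower in H_FMG against HFD (0 to 2 without 1 array), 4 higher in BC against ND, and 1 lower in both L_FMG against SMG and the trend. They also raised the counts over all genes in these 4, to 566 from 1, 629 from 18, 15 from 0 and 222 from 0. The median of L_FMG against SMG ran from -0.68 to -0.19 without 1 array. The 2 calls of L_FMG against RMG became 4 with quantile normalization, 1 with centred arrays or without the intensity trend, 9 without dim genes, 17 with array weights, 22 with only its own arrays, and 0 to 1 without 1 array. Of all genes, 0.314% were called in the main fit, 2.44% without dim genes, 5.83% with array weights and 4.41% with its own arrays. The F test called 28 members with array weights and 0 with centred arrays, every probe or no intensity trend, and 0 to 23 without 1 array. It called 8.84% of all genes with array weights, in place of 0.0492%. The cause of these moves was not tested, apart from the fewer arrays or genes that a setting itself brings.

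Mean levels moved beyond 1 SD in ND, to 4.52 with quantile normalization and 4.50 with centred arrays. Over the brighter members alone they were 4.75 in ND, 5.34 in HFD, 5.24 in BC, 5.62 in RMG, 4.97 in L_FMG and 4.89 in H_FMG. The mean of SMG, the group with the widest spread, is not listed here. The direct comparisons with RMG and of L_FMG with SMG were added after seeing the data.

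Numbers in the titles recur across groups, and the labels do not say whether they pair the arrays. Of 18 same-numbered pairs 2 correlated over 0.1 in their deviations from the group means (range -0.30 to 0.18). Differently numbered pairs were not set beside them, so these values cannot decide on a pairing. With the number as a replicate block, 17 members were called in HFD against ND, 16 of them the same, and 0 by the F test.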
